A study of Mus musculus with 9 samples.

Results

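Group 2 innate lymphoid cells (ILC2) sorted from the brain were compared, gene by gene, with T cells sorted from the brain of aged mice given IL-33. The comparison took the 2 count columns headed ILC2 against the 3 columns headed T, which are 5 of the 9 samples in the series, over 24394 of the 24423 rows of the count table. The rows set aside were 27 whose gene symbols had turned into calendar dates and 2 that name no gene. Both populations, and the microglia that share the table, came from C57BL/6 mice aged 20 to 22 months that received 400 ng of the cytokine IL-33 on each of 7 days. IL-33, old age and strain were therefore common to every library, and no untreated or young animal entered the comparison. The labels list 3 samples of each population. The remaining ILC2 sample was not analysed here, and a column headed ILC1 matched the labels of no sample and was left out. Which surface proteins were used for sorting is not stated, so a gene for a surface protein may have helped to choose the cells. The labels do not say whether libraries came from separate or pooled animals, so p-values measure only how far these libraries spread, and part of that spread may be technical. Libraries are numbered in column order, which pairs none of them.

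ILC2 are tissue-resident lymphocytes without rearranged antigen receptors. They answer IL-33, an alarm cytokine released by stromal and glial cells, through ST2, the product of Il1rl1, which signals with the IL-1 receptor accessory protein through MyD88, and they release IL-5, IL-13 and amphiregulin. T cells see peptides on MHC molecules through an antigen receptor that is carried to the surface and coupled to the kinase Lck by the CD3 chains, and cytotoxic T cells kill with granzymes, perforin and Fas ligand. In the brain, both cell types have been described mainly in the meninges and the choroid plexus.

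The ILC2 libraries held 10544868 and 12585870 counts on genes, against 8376609, 13585956 and 8767738 in the T cell libraries. Levels are in CPM, library-scaled counts. On log2(CPM + 1) values the libraries of 1 population correlated at Pearson's r of 0.845 to 0.865 over the genes tested, and ILC2 with T cell libraries at 0.782 to 0.805, a description across genes that are not independent replicates. Summed CPM of 18 microglial genes was 3577 and 4161 in ILC2 and 3308, 4946 and 4986 in T cells, which overlapped, against 85240 to 113900 in microglia. Summed CPM of 15 basophil and mast cell genes was 811.5 and 1405 in ILC2 and 64.5, 46.69 and 168.5 in T cells, and of 13 oligodendrocyte genes 1104 and 754.5 in ILC2 and 466.1, 636.8 and 638.1 in T cells. Of 14 such lists for other cell types, 4 had a higher sum in each ILC2 library than in any T cell library, namely these and those of regulatory T cells (1833 and 2073 in ILC2, 1264, 1069 and 1218 in T cells) and of ILC3, Th17 and gamma delta T cells (3564 and 3113 in ILC2, 1703, 1822 and 1273 in T cells). In that last list Cxcr6 alone made up nearly all of the ILC2 sum. Of the 10 tested genes of that list, 1 was above and 6 were below all T cell libraries. Over all genes tested, 13.4% were above and 11.8% below. Of 12 tested regulatory T cell genes, 4 were above and 2 below all T cell libraries. None of the 12 was called, and their median log2 fold change of ILC2 over T cells was -0.04. Their list shares Il2ra with the list of ILC2 identity genes. The sums of 3 lists were lower in both ILC2 libraries. Eosinophil genes had 624.9 and 749.6 in ILC2 against 1197, 1439 and 4818 in T cells. Border macrophage, monocyte and dendritic cell genes had 1159 and 1281 against 2620.0, 1908 and 1809, and NK cell and ILC1 genes were the third list. The lower border macrophage sum rested on Ly6c2, with a mean of 45.1 CPM in ILC2 and 1536 CPM in T cells. Of the 18 tested genes of that list, 3 were above all T cell libraries and only Ly6c2 was below them. These counts stand beside the same 13.4% above and 11.8% below over all genes tested. The part of such cells, microglia among them, was not tested for any gene, whether or not a microglial level is given below. The ILC2 libraries also differed from each other, with summed CPM of 76 cytosolic ribosomal protein genes at 53040 in ILC2 1 and 95230 in ILC2 2.

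Differences were tested on 13000 genes whose mean count reached 10. The test was edgeR's quasi-likelihood F test, on 1 fit that also held 3 microglia libraries. The call needed a p adjusted by Benjamini-Hochberg of less than 0.05 together with a log2 fold change of 1 or more either way. Every fold is ILC2 over T cells unless it is written as lower. The test called 56 genes higher (0.431%) and 64 genes lower (0.492%) in ILC2 than in T cells, 120 in all (0.923%). Both ILC2 libraries lay above all 3 T cell libraries for 1744 genes (13.4%) and below all of them for 1536 (11.8%), among them all 120 called genes. Counts of list members below are to be read against these shares and the shares called. The calls are sensitive to single libraries: 11 of the higher and 19 of the lower genes were called in each of the 5 fits that left out 1 ILC2 or T cell library, and 16 and 15 in none. Without microglia in the fit, 70 of 12493 genes were called higher (0.56%) and 109 lower (0.872%), of which 42 and 53 were also called with microglia. In bulk libraries such as these, fewer cells that express a gene and less RNA per cell cannot be told apart.

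**Figure D1:**
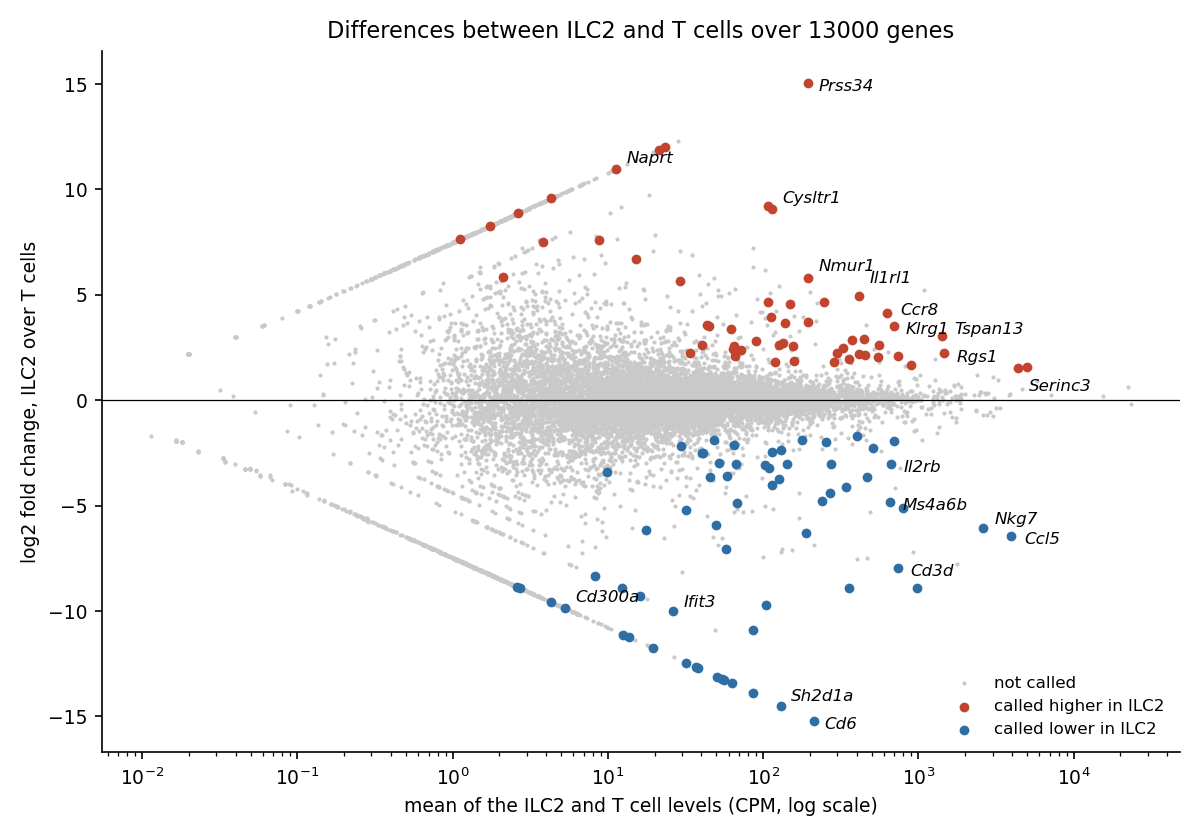
Log2 fold change of ILC2 over T cells (vertical axis) against mean level in CPM (horizontal log axis) for the 13000 genes tested, with the 56 genes called higher and the 64 called lower in colour. The straight diagonal streaks are genes with no count in one of the populations, where a small added count sets the size of the fitted fold change.

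Identity genes ran mostly in the direction that the labels give. Both identity lists were written with earlier results of these data known, so the counts below describe the libraries and are not independent support for the labels. All 23 tested genes of an ILC2 identity list were above every T cell library in both ILC2 libraries, with 7 called higher, none called lower and a median log2 fold change of 4.95, against 0 over all genes tested. Of 18 tested T cell identity genes, 17 were below every T cell library in both ILC2 libraries, with 7 called lower, none called higher and a median log2 fold change of -6.66. Ccl5, which encodes a chemokine of killer and memory T cells, had 88.1 and 94 CPM in ILC2 and 8507, 9803 and 5201 CPM in T cells, without overlap (log2 fold change -6.43 ± 0.50, adjusted p = 0.00142). Nmur1 was higher (log2 fold change 5.81 ± 0.55, adjusted p = 0.00706) and Cd3d lower (log2 fold change -7.94 ± 0.68, adjusted p = 0.00142), and the calls of these 3 markers held in every setting run.

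Among receptors of the IL-1 family, the IL-33 receptor was higher and the IL-18 receptor lower in ILC2 than in T cells. Il1rl1, which encodes ST2, had 1045 and 553 CPM in ILC2 and 38.6, 6.82 and 32.1 CPM in T cells. The lower ILC2 library stood well above the highest T cell library, and Il1rl1 was 30.9-fold higher (log2 fold change 4.95 ± 0.75, adjusted p = 0.0173). The Il1rl1 call was lost without T cells 3 (adjusted p = 0.0542) or ILC2 1 (0.0775). Il18r1, the ligand-binding chain of the IL-18 receptor, had 2.42 and 0.792 CPM in ILC2 and 168, 54.3 and 70.4 CPM in T cells. All T cell libraries were far above both ILC2 libraries, a 60.7-fold lower level in ILC2 (log2 fold change -5.91 ± 0.99, adjusted p = 0.044). The Il18r1 call was lost without any 1 of the 5 libraries (adjusted p = 0.0699 to 0.217), with no abundance trend (0.0711), with limma-voom (0.124) and when tested against a minimum fold (0.072). The other signalling chain, Il18rap, had 38.7 and 36 CPM in ILC2 and 98.9, 58.9 and 53.5 CPM in T cells, groups that did not overlap, and was not called (adjusted p = 0.973). Il1rap, the co-receptor shared by ST2 and the IL-1 receptor, had 18.5 and 8.4 CPM in ILC2 and 2.17, 2.62 and 29.7 CPM in T cells, which overlapped (adjusted p = 1). Il17rb, part of the IL-25 receptor, and Il1r2, the decoy receptor for IL-1, were not called (adjusted p = 0.435 and 0.338), although Il17rb had 199.6 and 295 CPM in ILC2 against 1.3, 0 and 15.9 CPM in T cells and Il1r2 had 120.5 and 254 CPM against 0, 11.8 and 19 CPM. In the list of 22 tested receptors and adaptors of this family, 1 was called higher and 1 lower, with a median log2 fold change of 0.28.

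Il1rl1 and Il18r1 are neighbours on mouse chromosome 1, with 133 bases between the end of Il1rl1 and the start of Il18r1 in the RefSeq annotation of GRCm38.p6, the build also called mm10, and among the 118 called genes with a position no other neighbours within 200000 bases had opposite directions. RefSeq promoters list 2 starts for Il1rl1, both inside the span of the gene (chr1:40404864-40465418). The 250 bases before the more upstream of these starts, at chr1:40429320-40429569 on the plus strand, are shown because Il1rl1 encodes the receptor that IL-33 acts on, with capitals for AGATAA, a core that GATA factors bind, searched on both strands (RefSeq, GRCm38.p6).
Il1rl1: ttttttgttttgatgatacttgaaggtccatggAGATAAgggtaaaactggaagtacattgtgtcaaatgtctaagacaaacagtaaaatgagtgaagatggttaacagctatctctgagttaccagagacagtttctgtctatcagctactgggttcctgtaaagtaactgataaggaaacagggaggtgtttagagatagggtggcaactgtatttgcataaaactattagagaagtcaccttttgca
The match begins 217 bases before that start. Only this form of the core was searched, and others, such as TGATAA in this window, stay in lower case. AGATAA occurred in the upstream windows of 7.39% of the 9953 tested genes with a RefSeq promoter, of 7 of 44 genes called higher (15.9%) and of 5 of 42 called lower (11.9%), which describes letters in these windows and not binding.

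Receptors for neuropeptides and lipid mediators included 3 called higher and none called lower among 29 tested, with a median log2 fold change of 1.11, or 0.72 with genes at 0 in a population held at their bound. Nmur1, the receptor for neuromedin U on ILC2, had 375 and 393 CPM in ILC2 and 3.36, 7.64 and 9.45 CPM in T cells. The gap between the populations was many times the spread within either, 56.3-fold, and the call was kept without each library. Cysltr1, a receptor for cysteinyl leukotrienes, had 301 and 152 CPM in ILC2 and 0, 0 and 1.29 CPM in T cells. T cells 1 and T cells 2 held no Cysltr1 count, so the fitted log2 fold change of 9.07 ± 1.23 (adjusted p = 0.0114) rests on a single T cell library and became 14.31 without T cells 3, while the call held in every setting run. Ramp1, which joins the calcitonin receptor-like receptor to form the receptor for calcitonin gene-related peptide, had 612 and 971 CPM in ILC2 and 151, 80.9 and 84.8 CPM in T cells, without overlap (log2 fold change 2.90 ± 0.39, adjusted p = 0.011). The Ramp1 call was lost without ILC2 2 (adjusted p = 0.0582). Its partner Calcrl had 53.3 and 9.9 CPM in ILC2 and 8.35, 38.8 and 16.8 CPM in T cells, which overlapped (adjusted p = 1).

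Other members of this group had large differences without a call. Vipr2, a receptor for vasoactive intestinal peptide, had 245 and 160.4 CPM in ILC2 and 0.867, 0 and 7.46 CPM in T cells, and Ptgir, the prostacyclin receptor, had 230.2 and 121 CPM in ILC2 and 0.867, 4.68 and 13.2 CPM in T cells. Both were above every T cell library in both ILC2 libraries, with adjusted p = 0.154 for Vipr2 and 0.304 for Ptgir. Without microglia in the fit the adjusted p was 0.0718 for Vipr2 and 0.0362 for Ptgir, and over all settings it ran from 6.84e-05 to 0.409 and from 0.000733 to 0.579.

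**Figure D2:**
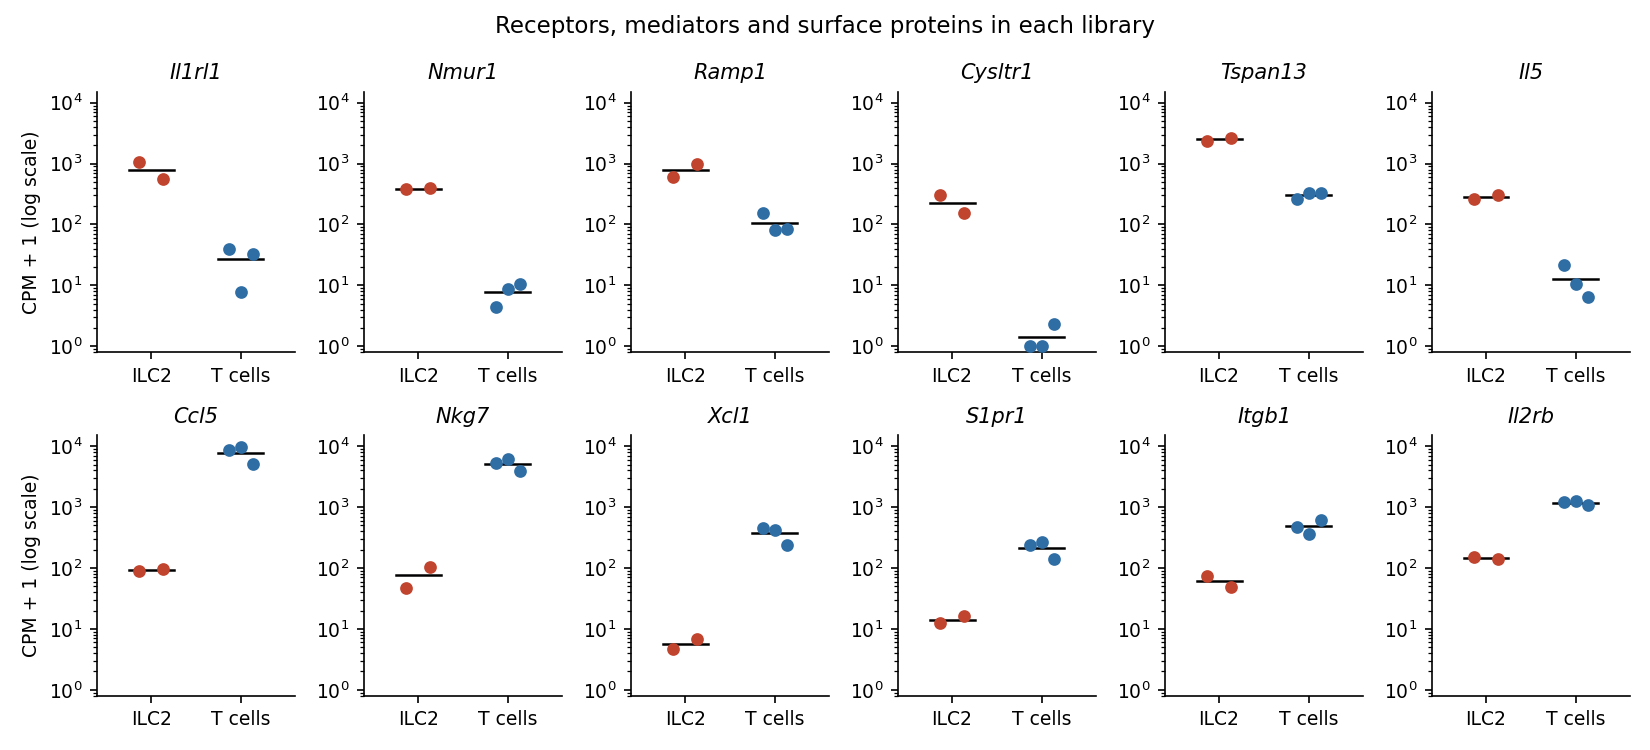
CPM + 1 on a log axis for 12 genes, with 1 point per library, ILC2 left of T cells, and a bar at the mean. Nmur1, Cysltr1, Tspan13 and Ramp1 are higher and Nkg7, Xcl1, S1pr1 and Itgb1 lower in both ILC2 libraries than in any T cell library.

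Of 34 tested secreted cytokines and growth factors, 1 was called higher and 1 lower in ILC2, while 14 were above and 5 below all T cell libraries, with a median log2 fold change of 1.62. Over all genes tested, 13.4% were above and 11.8% below. Il5, which drives the growth of eosinophils, had 262 and 306 CPM in ILC2 and 20.8, 9.57 and 5.47 CPM in T cells, a 23.7-fold higher level (log2 fold change 4.57 ± 0.64, adjusted p = 0.0116). The Il5 call was lost without ILC2 1 (adjusted p = 0.055) or ILC2 2 (0.0787). Pdgfb, the B chain of platelet-derived growth factor, had 0 and 0.0792 CPM in ILC2 and 22.9, 6.96 and 19.3 CPM in T cells. It rested on 1 count in ILC2, and the ratio of T cells over ILC2 was 409.7 (95% counting interval 73.5 to 16182), with log2 fold change -8.32 ± 1.43, adjusted p = 0.0283. The Pdgfb call was lost without T cells 1, T cells 3, ILC2 1 or ILC2 2 (adjusted p = 0.0599 to 0.144), in a fit without the microglia (0.0762), with the newer quasi-likelihood method (0.0777) and with limma-voom (0.0696). Fitting the ILC2 and T cell libraries without microglia called 5 members higher and 1 lower. These were Il5 with Areg, Calca, Csf2 and Il13 on the higher side and Ifng on the lower. Csf2, which encodes GM-CSF, had 159 and 152 CPM in ILC2 and 21.6, 6.61 and 7.17 CPM in T cells. Its adjusted p was 0.456, and 0.0181 without microglia, over a range of 0.00104 to 0.723 across all settings. Vegfc, a growth factor for lymphatic vessels in no list, had 32 and 41.3 CPM in ILC2 and 0, 0 and 0.0995 CPM in T cells. The single T cell count gives a ratio of 1239 (95% counting interval 222 to 48929.5), and Vegfc was not called (adjusted p = 0.0732, 0.0095 without microglia and 1.66e-05 to 0.347 over all settings). Ebi3, the subunit shared by IL-27 and IL-35, had 211 and 299 CPM in ILC2 and 28.6, 5.51 and 25.5 CPM in T cells. It was 12.8-fold higher in ILC2 (log2 fold change 3.68 ± 0.62, adjusted p = 0.0247). The Ebi3 call was lost without T cells 1, T cells 3, ILC2 1 or ILC2 2 (adjusted p = 0.0594 to 0.118) and when tested against a minimum fold (0.0599). Tnf overlapped, with 90.9 and 38.6 CPM in ILC2 and 85.5, 84.9 and 35.8 CPM in T cells (adjusted p = 1).

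The chains of the T cell receptor complex did not differ to the same degree. Cd3d had 8.63 and 3.25 CPM in ILC2 and 1534, 1726 and 1130.4 CPM in T cells, 246-fold lower. Cd3e had 22.4 and 2.46 CPM in ILC2 and 1436, 2239 and 1794 CPM in T cells. It was 147-fold lower in ILC2 (log2 fold change -7.20 ± 1.44, adjusted p = 0.0603). The groups of both chains were far apart, and Cd3e missed the threshold, at 0.0092 without microglia and 2.93e-06 to 0.251 over all settings. Cd247, the zeta chain, had 24 and 9.59 CPM in ILC2 and 497, 534 and 356 CPM in T cells. It was 27.5-fold lower in ILC2 (log2 fold change -4.78 ± 0.56, adjusted p = 0.0116). The Cd247 call held in every setting run. Cd3g, by contrast, had 558 and 790.3 CPM in ILC2 and 2007, 2215 and 1653 CPM in T cells, only 2.9-fold lower. ILC2 lay below T cells here too, without overlap, but Cd3g was not called (log2 fold change -1.54 ± 0.37, adjusted p = 0.118, 0.0571 without microglia and 0.00169 to 0.596 over all settings). Fold changes were not tested between chains.

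Cd3g and Cd3d lie head to head on chromosome 9, with their RefSeq starts 1355 bases apart. Their upstream windows are printed because these neighbours differed most in fold among the 4 chains, at chr9:44980432-44980681 on the minus strand for Cd3g and at chr9:44981536-44981785 on the plus strand for Cd3d, with AGATAA or its complement in capitals (RefSeq, GRCm38.p6).
Cd3g: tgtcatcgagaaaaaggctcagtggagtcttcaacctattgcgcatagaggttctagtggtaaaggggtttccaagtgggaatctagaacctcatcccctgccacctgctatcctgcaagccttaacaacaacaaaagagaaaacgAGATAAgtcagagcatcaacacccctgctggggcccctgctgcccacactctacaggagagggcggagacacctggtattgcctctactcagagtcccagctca
Cd3d: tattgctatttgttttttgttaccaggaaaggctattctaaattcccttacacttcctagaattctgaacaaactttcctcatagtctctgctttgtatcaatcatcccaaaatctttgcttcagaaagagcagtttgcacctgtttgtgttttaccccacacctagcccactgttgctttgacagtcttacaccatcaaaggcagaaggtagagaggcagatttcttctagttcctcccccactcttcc
The Cd3g window holds 1 match, beginning 104 bases before the start, and these letters are not in the Cd3d window.

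**Figure D3:**
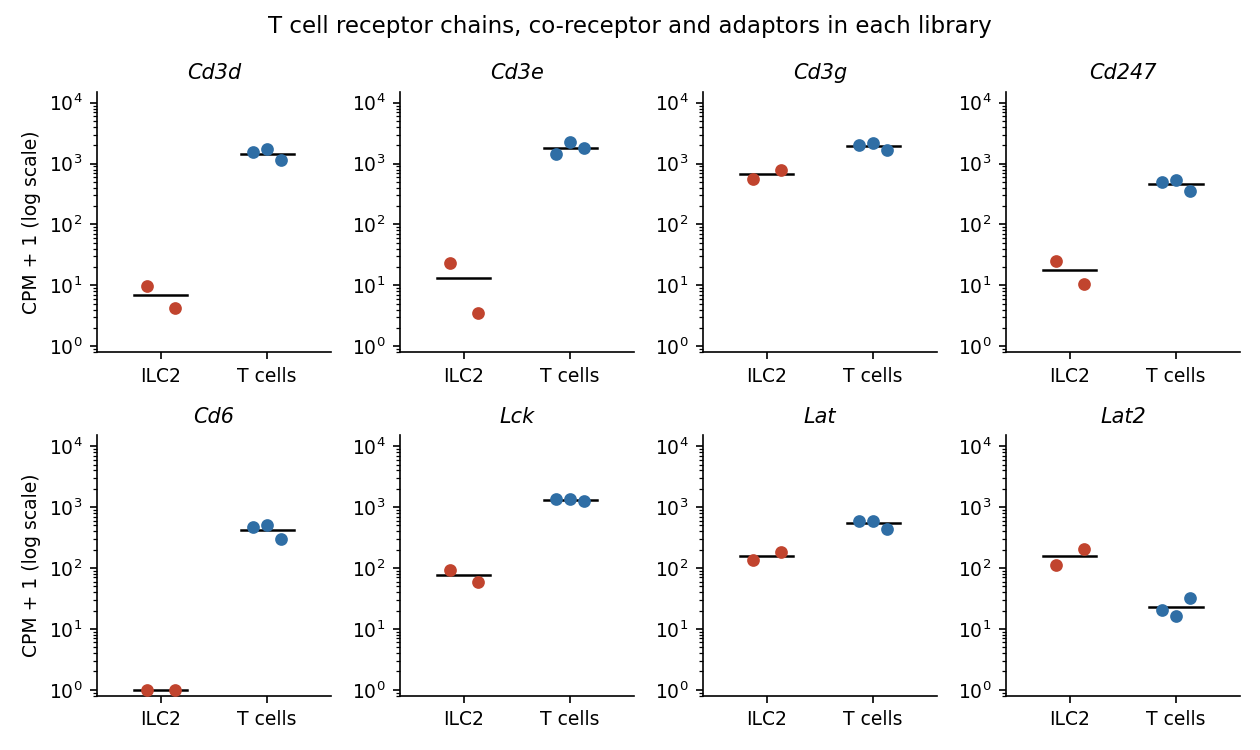
CPM + 1 on a log axis in each library for the CD3 chains, Cd6 and the signalling genes Lck, Lat and Lat2, ILC2 left of T cells, with a bar at the mean. Cd3g stays at 558 and 790.3 CPM in ILC2 while Cd3d is at 8.63 and 3.25 CPM, and Lat2 runs the other way.

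Proximal signalling genes of the antigen receptor held 1 called higher and 1 lower among 48 tested, with 20 below and 3 above all T cell libraries and a median log2 fold change of -0.62. The shares over all genes tested were 11.8% below and 13.4% above. Lck, the kinase that phosphorylates the CD3 chains, had 91.8 and 58.7 CPM in ILC2 and 1373, 1372 and 1248 CPM in T cells, 17.7-fold lower without overlap, and was not called (adjusted p = 0.316, 0.00131 without microglia, 3.46e-05 to 0.719 over all settings). Lat, the membrane adaptor downstream of Lck, had 136 and 181 CPM in ILC2 and 596, 589 and 442 CPM in T cells, 3.42-fold lower (adjusted p = 0.463, 0.0389 without microglia, 0.00496 to 0.852 over all settings). Lat2, a related adaptor of B cells, mast cells and myeloid cells, was the member called higher, with 113 and 203 CPM in ILC2 and 19.7, 15.4 and 31.4 CPM in T cells. It was 7.1-fold higher in ILC2 (log2 fold change 2.83 ± 0.40, adjusted p = 0.0116). The Lat2 call was lost without T cells 1 (adjusted p = 0.057) or ILC2 2 (0.0647). Microglia averaged 400.2 CPM of Lat2. Zap70, the kinase recruited to phosphorylated CD3 chains, overlapped, with 185 and 54 CPM in ILC2 and 127, 182 and 213 CPM in T cells.

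Of 21 tested SLAM, CD2 and CD5 surface receptors and their adaptors, 3 were called lower and none higher, with a median log2 fold change of -1.32. Cd6, a scavenger receptor that tunes T cell activation, had no count in either ILC2 library and 468, 504 and 299.9 CPM in T cells, at least 1768-fold lower with a floor of 3 counts per library (adjusted p = 0.00142). The Cd6 call held in every setting run. Sh2d1a, the adaptor SAP of the SLAM receptors, had no count in ILC2 and 252, 276 and 251 CPM in T cells, at least 1082-fold lower (adjusted p = 0.00142). The Sh2d1a call held in every setting run. Slamf7 was likewise at 0 in ILC2 and had 115, 139.9 and 68.3 CPM in T cells, at least 449-fold lower (adjusted p = 0.0246). The Slamf7 call was lost without T cells 1, T cells 2, ILC2 1 or ILC2 2 (adjusted p = 0.0542 to 0.128). Cd52 overlapped, with 4007 and 6991 CPM in ILC2 and 3686, 4478 and 3191 CPM in T cells (adjusted p = 0.679).

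Among cytotoxic effector genes, calls were on the lower side. Of 24 tested, 7 were called lower and none higher, 16 were below all T cell libraries, and the median log2 fold change was -3.27, or -2.39 with bounds. Nkg7, a granule membrane protein of killer lymphocytes, had 46.3 and 104 CPM in ILC2 and 5219, 6085 and 3983 CPM in T cells. Its T cell values lay far above both ILC2 values, 67.6-fold lower in ILC2 (log2 fold change -6.08 ± 0.66, adjusted p = 0.00547). The Nkg7 call held in every setting run. Fasl, the death ligand, had 0 and 0.158 CPM in ILC2 and 159.6, 182 and 176 CPM in T cells, and its 2 ILC2 counts give a ratio of T cells over ILC2 of 2158 (95% counting interval 597 to 17818) (adjusted p = 0.00547). The Fasl call held in every setting run. Efhd2, a calcium-binding protein, had 32.6 and 52.9 CPM in ILC2 and 228, 202 and 227 CPM in T cells (log2 fold change -2.36 ± 0.39, adjusted p = 0.0247). The Efhd2 call was lost without any 1 of the 5 libraries (adjusted p = 0.053 to 0.144), with no abundance trend (0.0549) and when tested against a minimum fold (0.11). Prf1, which encodes perforin, had no count in ILC2 and 65.8, 227 and 199 CPM in T cells, at least 683-fold lower, and was not called (adjusted p = 0.105, 0.00217 without microglia, 0.000205 to 0.372 over all settings). Gzma, by contrast, overlapped, with 23.1 and 80 CPM in ILC2 and 48.5, 633 and 102 CPM in T cells. The summed CPM of 18 NK cell and ILC1 genes was 360 and 635.9 in ILC2 and 1095, 2030 and 1219 in T cells, lower in both ILC2 libraries, and the part of NK cells in these values was not tested.

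Most receptors of the killer lectin family lay below T cells, and Klrg1 lay above. Among 18 tested, 2 were called lower and 1 higher, 12 were below and 1 was above all T cell libraries, and the median log2 fold change was -6.65, or -4.15 with bounds. Klre1 and Klrc1, subunits of receptor complexes of NK cells and killer T cells, had no count in ILC2. Klre1 had 84, 158 and 60.1 CPM in T cells, at least 420.2-fold lower in ILC2 (adjusted p = 0.0114). The Klre1 call was lost without T cells 2 (adjusted p = 0.0506) or ILC2 2 (0.0535). Klrc1 had 82.5, 193 and 60.8 CPM in T cells, at least 467-fold lower (adjusted p = 0.0116), a call lost without T cells 2, ILC2 1 or ILC2 2 (adjusted p = 0.0506 to 0.0595), and its reads may be shared with the near-identical Klrc2. Klrg1, the inhibitory receptor that ILC2 share with effector T cells, had 1025 and 1517 CPM in ILC2 and 78.5, 154 and 98.1 CPM in T cells. It was 11.5-fold higher in ILC2 (log2 fold change 3.53 ± 0.50, adjusted p = 0.0116). The Klrg1 call was lost without T cells 1, T cells 3 or ILC2 2 (adjusted p = 0.0507 to 0.0664).

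In the Ly6 and Ms4a families, small membrane proteins of leukocytes, 3 of 19 tested genes were called lower and none higher, with a median log2 fold change of -1.51. Ms4a6b had 67.2 and 23.3 CPM in ILC2 and 1384, 1179 and 1248 CPM in T cells. It was 28.1-fold lower in ILC2 (log2 fold change -4.81 ± 0.54, adjusted p = 0.00578). The Ms4a6b call held in every setting run. Ly6c2 had 28 and 62.1 CPM in ILC2 and 2215, 1349 and 1043 CPM in T cells. It was 34.1-fold lower in ILC2 (log2 fold change -5.09 ± 0.65, adjusted p = 0.00989). The Ly6c2 call was lost without ILC2 1 (adjusted p = 0.062). Reads of Ly6c2 may be shared with its near-identical neighbour Ly6c1, which had 7.83 and 19.9 CPM in ILC2 and 49.4, 53.4 and 15.3 CPM in T cells. Ms4a4b had 28.6 and 3.88 CPM in ILC2 and 3802, 3788 and 3051 CPM in T cells, 219-fold lower without overlap, yet was not called (adjusted p = 0.103, 0.0047 without microglia, 8.3e-06 to 0.424 over all settings). The GIMAP genes, small GTPases of lymphocyte survival, had none called in 8 tested, 5 below all T cell libraries and a median log2 fold change of -1.04, with 3 called lower without microglia. The share below all T cell libraries was 11.8% over all genes tested.

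**Figure D4:**
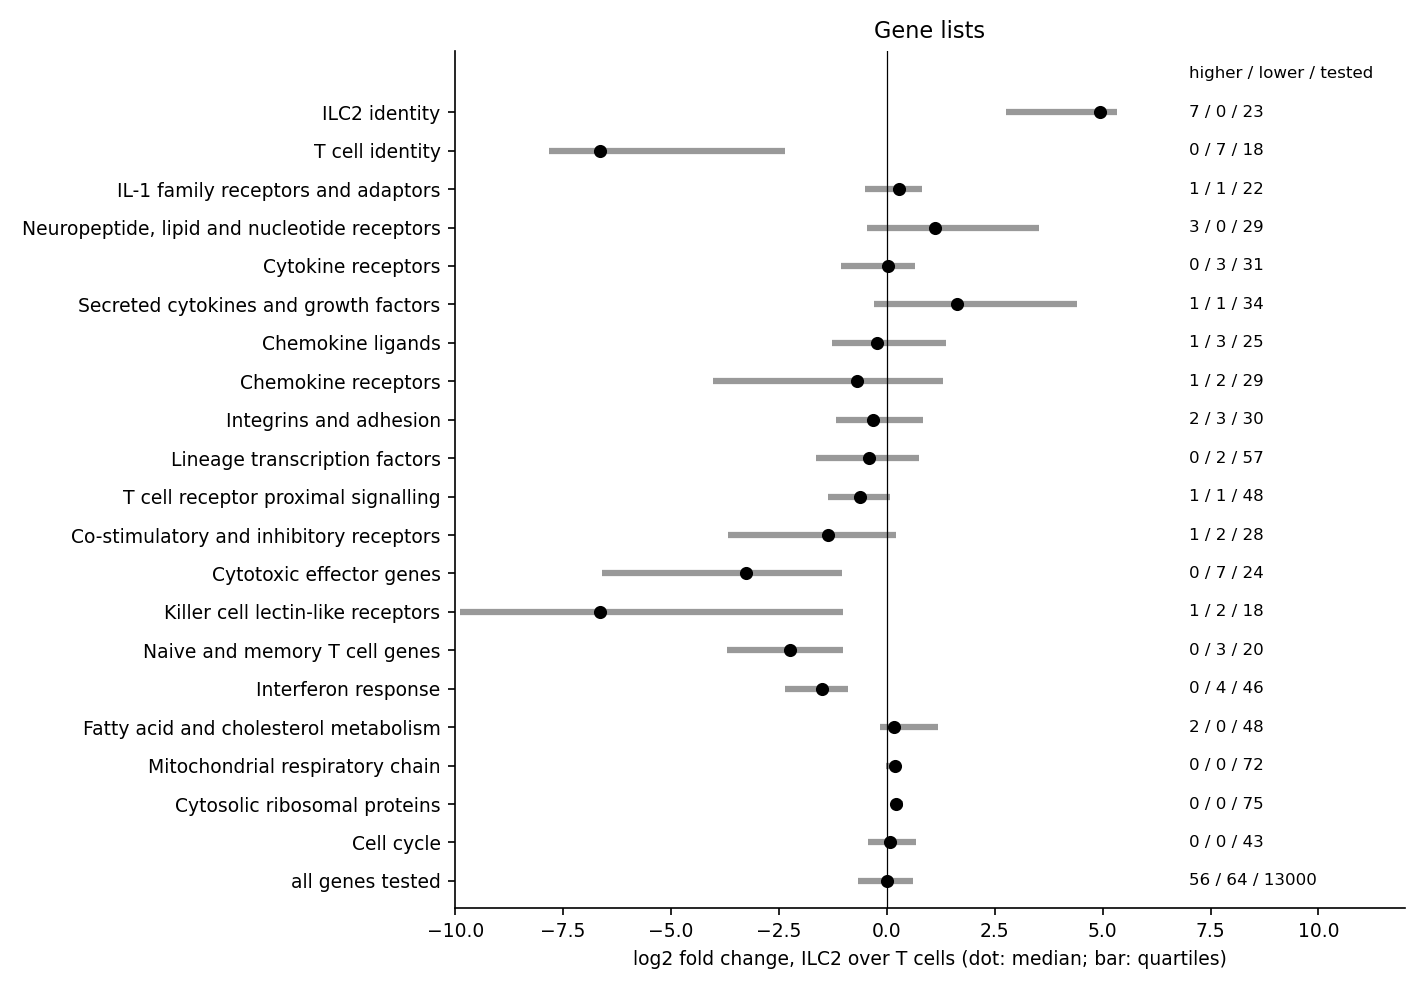
Median log2 fold change of ILC2 over T cells for selected gene lists with the quartiles of their tested members, and at the right the numbers called higher, called lower and tested, beside 0 for all genes tested. ILC2 identity genes lie at 4.95 and T cell identity genes at -6.66, with cytotoxic, lectin receptor and interferon response lists on the lower side.

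Chemokines and their receptors differed member by member. Of 25 tested ligands, 1 was called higher and 3 lower, with a median log2 fold change of -0.24, and of 29 tested receptors, 1 was called higher and 2 lower, with a median of -0.70. Xcl1, which draws cross-presenting dendritic cells, had 3.71 and 5.7 CPM in ILC2 and 457, 413 and 242 CPM in T cells. It was 78.7-fold lower in ILC2 (log2 fold change -6.29 ± 1.18, adjusted p = 0.0424). The Xcl1 call was lost without any 1 of the 5 libraries (adjusted p = 0.0651 to 0.241), with no abundance trend (0.0683) and when tested against a minimum fold (0.0688). Ccl4 had 11.4 and 62.8 CPM in ILC2, 849, 601 and 483 CPM in T cells and a mean of 3078 CPM in microglia, whose part in these values was not tested. It was 17.4-fold lower in ILC2 (log2 fold change -4.12 ± 0.68, adjusted p = 0.0247). The Ccl4 call was lost without T cells 1 (adjusted p = 0.0637) or T cells 2 (0.053). Cxcl2, which attracts neutrophils, ran the other way with 151 and 73 CPM in ILC2 and 12.3, 6.89 and 13.7 CPM in T cells. It was 10.2-fold higher in ILC2 (log2 fold change 3.36 ± 0.54, adjusted p = 0.0244). Its microglial mean was 155.1 CPM, and the part of microglia in the ILC2 values was not tested. The Cxcl2 call was lost without T cells 1, T cells 2, T cells 3 or ILC2 1 (adjusted p = 0.059 to 0.114), with limma-voom (0.0662) and when tested against a minimum fold (0.0585). Ccr8 had 1459 and 929 CPM in ILC2 and 60.5, 64.2 and 76.1 CPM in T cells. It was 17.8-fold higher in ILC2 (log2 fold change 4.16 ± 0.69, adjusted p = 0.0246). The Ccr8 call was lost without any 1 of the 5 libraries (adjusted p = 0.0664 to 0.113). Cxcr6, a receptor of tissue lymphocytes, had 3544 and 3098 CPM in ILC2 and 1427, 1701 and 1183 CPM in T cells, above in both ILC2 libraries and not called (adjusted p = 0.294).

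The exit receptor S1pr1 and the integrin chains Itgb1 and Itgb2 were lower in ILC2, and Itgb3 was higher. S1pr1, the sphingosine-1-phosphate receptor that lymphocytes need to leave tissues, had 11.3 and 15.2 CPM in ILC2 and 235, 267 and 138 CPM in T cells. It was 16.1-fold lower in ILC2 (log2 fold change -4.01 ± 0.44, adjusted p = 0.00547). The S1pr1 call held in every setting run. S1pr1 is 1 of 20 tested naive and memory T cell genes, of which 3 were called lower and none higher, 16 were below all T cell libraries and the median log2 fold change was -2.23. Among 30 tested integrins and adhesion genes, 2 were called higher and 3 lower, with a median of -0.32. Itgb1, the beta chain of the collagen, laminin and fibronectin receptors, had 73.8 and 46.8 CPM in ILC2 and 473, 363 and 614 CPM in T cells. It was 8.02-fold lower in ILC2 (log2 fold change -3.00 ± 0.37, adjusted p = 0.00915). The Itgb1 call held in every setting run. Itgb2, the beta chain of LFA-1, had 211 and 138 CPM in ILC2 and 670.0, 1154 and 719 CPM in T cells. It was 4.85-fold lower in ILC2 (log2 fold change -2.28 ± 0.38, adjusted p = 0.0252). The Itgb2 call was lost without T cells 2, ILC2 1 or ILC2 2 (adjusted p = 0.0692 to 0.167), with no abundance trend (0.0625) and when tested against a minimum fold (0.12). Itgb3, the beta chain of the vitronectin receptor, was higher, with 93.1 and 149 CPM in ILC2 and 24, 26.7 and 18.3 CPM in T cells (log2 fold change 2.39 ± 0.42, adjusted p = 0.0292). The Itgb3 call was lost without any 1 of the 5 libraries (adjusted p = 0.056 to 0.202), with no abundance trend (0.0562) and when tested against a minimum fold (0.124).

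Cytokine receptors outside the IL-1 family held 3 called lower and none higher among 31 tested, with a median log2 fold change of 0.04. Il2rb, the beta chain for IL-2 and IL-15, had 151 and 141 CPM in ILC2 and 1198, 1242 and 1101 CPM in T cells. It was 8.09-fold lower in ILC2 (log2 fold change -3.02 ± 0.31, adjusted p = 0.00915). The Il2rb call held in every setting run. The alpha chain Il2ra ran the other way without a call, with 553 and 190.1 CPM in ILC2 and 34.6, 42.8 and 96.9 CPM in T cells (log2 fold change 2.68 ± 0.61, adjusted p = 0.139). Ifngr1, a chain of the interferon-gamma receptor, had 271 and 309.7 CPM in ILC2 and 1253, 1015 and 1057 CPM in T cells. It was 3.82-fold lower in ILC2 (log2 fold change -1.93 ± 0.28, adjusted p = 0.0137). The Ifngr1 call was lost without ILC2 1 (adjusted p = 0.0809) or ILC2 2 (0.0595) and when tested against a minimum fold (0.103). Il21r, the receptor for IL-21, had 17.3 and 26.8 CPM in ILC2 and 135, 242 and 178 CPM in T cells. It was 8.4-fold lower in ILC2 (log2 fold change -3.07 ± 0.43, adjusted p = 0.0116). The Il21r call was lost without ILC2 1 (adjusted p = 0.0788). Of 29 tested TNF family ligands and receptors, 2 were called lower and none higher, with a median of -0.75. One of them, Tnfrsf1a, the TNF receptor that can signal death, had 10 and 3.57 CPM in ILC2 and 51.7, 91.6 and 109.7 CPM in T cells. It was 12.4-fold lower in ILC2 (log2 fold change -3.63 ± 0.56, adjusted p = 0.0193). Its microglial mean was 338.8 CPM, and the part of microglia in the T cell values was not tested. The Tnfrsf1a call was lost without ILC2 2 (adjusted p = 0.0787) and with limma-voom (0.117). Among JAK, STAT and SOCS genes, 2 of 23 tested were called lower and none higher, with a median of -0.14. Ptpn6, the phosphatase SHP-1 of that list, had 83.1 and 68.4 CPM in ILC2 and 304, 247 and 283 CPM in T cells (log2 fold change -1.88 ± 0.31, adjusted p = 0.0246). Its microglial mean was 541.2 CPM, with a part in the T cell values that was not tested. The Ptpn6 call was lost without any 1 of the 5 libraries (adjusted p = 0.0543 to 0.128), with no abundance trend (0.0626) and when tested against a minimum fold (0.166).

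Most interferon response genes lay below T cells in both ILC2 libraries, and few of them were called. Of 46 tested, 4 were called lower and none higher, 35 were below and 1 was above all T cell libraries, and the median log2 fold change was -1.50. Ifi27l2a had 50.9 and 86.9 CPM in ILC2 and 891, 929 and 789 CPM in T cells. It was 12.6-fold lower in ILC2 (log2 fold change -3.66 ± 0.35, adjusted p = 0.00225). The Ifi27l2a call held in every setting run. Ifit3, an RNA-binding antiviral protein, had 0.0807 and 0 CPM in ILC2 and 27.8, 74.7 and 55.8 CPM in T cells. Its single ILC2 count gives a ratio of T cells over ILC2 of 1319.9 (95% counting interval 237 to 52133) (adjusted p = 0.00915), a call kept in every setting run, and its reads may be shared with the paralogue Ifit3b. Isg15, a ubiquitin-like protein, had 12.4 and 11.2 CPM in ILC2 and 81.4, 92.6 and 103 CPM in T cells. It was 7.82-fold lower in ILC2 (log2 fold change -2.97 ± 0.56, adjusted p = 0.0427). The Isg15 call was lost without any 1 of the 5 libraries (adjusted p = 0.0976 to 0.23), with no abundance trend (0.0711), with limma-voom (0.0508) and when tested against a minimum fold (0.121). Bst2 overlapped, with 121 and 207 CPM in ILC2 and 154, 232 and 186 CPM in T cells.

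**Figure D5:**
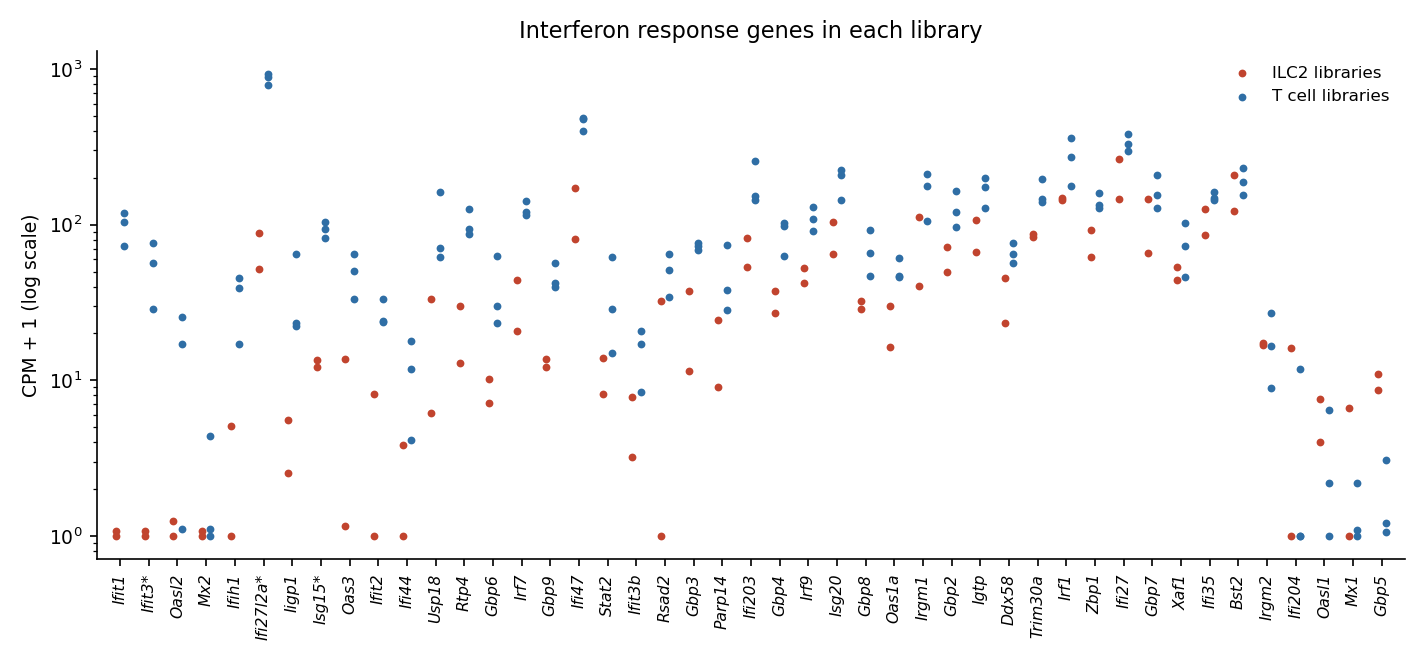
CPM + 1 on a log axis in each library for interferon response genes, all but 1 of those tested, ILC2 beside T cells, with an asterisk at the genes called lower in ILC2. For 35 of the 46 tested genes of the list both ILC2 libraries lay below all T cell libraries.

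The upstream windows of 2 called interferon genes are printed because they hold several copies of the same motif. Capitals mark the interferon response element (GAAA, any 2 bases, GAAA) or its complement, searched on both strands of the 250 bases before the start, with Ifit3 at chr19:34583279-34583528 on the plus strand and Isg15 at chr4:156200819-156201068 on the minus strand (RefSeq, GRCm38.p6).
Ifit3: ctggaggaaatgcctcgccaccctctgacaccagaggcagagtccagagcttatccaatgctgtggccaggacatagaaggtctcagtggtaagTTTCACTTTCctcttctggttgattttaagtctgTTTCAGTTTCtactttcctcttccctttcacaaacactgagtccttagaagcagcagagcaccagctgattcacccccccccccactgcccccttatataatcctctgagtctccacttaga
Isg15: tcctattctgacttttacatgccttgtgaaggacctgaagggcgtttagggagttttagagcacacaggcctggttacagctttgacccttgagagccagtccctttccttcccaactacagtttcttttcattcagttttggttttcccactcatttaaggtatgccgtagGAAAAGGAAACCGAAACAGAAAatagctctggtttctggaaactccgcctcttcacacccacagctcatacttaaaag
The Ifit3 start used here, and its whole window, lie inside the annotated span of the gene (chr19:34583119-34588982). Matches begin 156 and 122 bases before the Ifit3 start and 78, 72 and 66 bases before the Isg15 start, where the 3 overlap. The motif was in the windows of 3.36% of 9953 tested genes, 18 of 31 interferon response genes with a promoter (58.1%), 2 of 44 genes called higher and 3 of 42 called lower. Interferon genes with the motif had a median log2 fold change of -1.33, with 13 of 18 below all T cell libraries, and those without it a median of -1.22, with 10 of 13 below. Values of the genes with and without the motif were close to each other, and no difference between them was tested.

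Of 57 tested lineage transcription factors, none was called higher and 2 were called lower, with a median log2 fold change of -0.40. Eomes, a T-box factor of killer lymphocytes, had no count in ILC2 and 87.6, 82.4 and 57 CPM in T cells, at least 315-fold lower (adjusted p = 0.0116). The Eomes call was lost without T cells 1 (adjusted p = 0.058) or T cells 2 (0.0511). Klf2, which drives S1pr1 in T cells, had 11.6 and 6.1 CPM in ILC2 and 159.6, 91.4 and 72.4 CPM in T cells. It was 12.2-fold lower in ILC2 (log2 fold change -3.60 ± 0.57, adjusted p = 0.0223). The Klf2 call was lost without ILC2 1 (adjusted p = 0.0762) or ILC2 2 (0.13) and with limma-voom (0.0993). Gata3, the factor that ILC2 require, had 1107 and 647 CPM in ILC2 and 121, 134 and 226 CPM in T cells, 5.47-fold higher without overlap, but was not called (adjusted p = 0.146, 0.0161 without microglia, 0.000135 to 0.45 over all settings). Tcf7 and Lef1, partner factors of naive and memory T cells, were below all T cell libraries without a call. Tcf7 had 6.62 and 21.2 CPM in ILC2 and 129, 209.6 and 208 CPM in T cells (adjusted p = 0.0606, 0.0183 without microglia, 7.75e-06 to 0.155 over all settings), and Lef1 had 19.4 and 22.7 CPM in ILC2 and 108, 144 and 128 CPM in T cells (adjusted p = 0.0622, 0.0174 without microglia, 0.000219 to 0.247 over all settings). Outside this list, Nfkb1, which encodes an NF-kB subunit, had 461 and 652 CPM in ILC2 and 78.2, 92.8 and 131 CPM in T cells. It was 5.52-fold higher in ILC2 (log2 fold change 2.46 ± 0.34, adjusted p = 0.0114), a call lost without ILC2 2 (adjusted p = 0.0595), as 1 of 26 tested NF-kB genes called.

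Regulators of G protein signalling, which shorten signals of chemokine and neuropeptide receptors, had 2 of 8 tested genes called higher and none lower. Rgs1 had 2704 and 2130.4 CPM in ILC2 and 657, 440.1 and 448 CPM in T cells. It was 4.69-fold higher in ILC2 (log2 fold change 2.23 ± 0.28, adjusted p = 0.00989). The Rgs1 call held in every setting run. Rgs2 had 1503 and 1213 CPM in ILC2 and 539, 379 and 374 CPM in T cells. It was 3.16-fold higher in ILC2 (log2 fold change 1.66 ± 0.28, adjusted p = 0.0247). The Rgs2 call was lost without T cells 2, T cells 3, ILC2 1 or ILC2 2 (adjusted p = 0.0576 to 0.113), with no abundance trend (0.0737) and when tested against a minimum fold (0.278). Both ILC2 libraries exceeded all T cell libraries for both genes.

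Lipid handling genes were called in both directions. Of 48 tested fatty acid and cholesterol genes, 2 were called higher and none lower, 11 were above all T cell libraries and the median log2 fold change was 0.18. The share above was 13.4% over all genes tested. Lpcat2, an acyltransferase that makes platelet-activating factor, had 317 and 216 CPM in ILC2 and 30.9, 46.4 and 58.7 CPM in T cells. It was 5.88-fold higher in ILC2 (log2 fold change 2.55 ± 0.33, adjusted p = 0.00989). The Lpcat2 call held in every setting run. In microglia Lpcat2 averaged 1762 CPM, and the part of microglia in the ILC2 values was not tested. Elovl5, an elongase of polyunsaturated fatty acids, had 928 and 542 CPM in ILC2 and 106, 215 and 176 CPM in T cells. It was 4.43-fold higher in ILC2 (log2 fold change 2.15 ± 0.37, adjusted p = 0.0285). The Elovl5 call was lost without T cells 1, T cells 3 or ILC2 1 (adjusted p = 0.0817 to 0.16), with no abundance trend (0.0626) and when tested against a minimum fold (0.15). Pparg, a nuclear receptor for fatty acids, had 215 and 244 CPM in ILC2 and 23.3, 0 and 13.2 CPM in T cells, above in both ILC2 libraries and not called (adjusted p = 0.583). Of 23 tested eicosanoid and endocannabinoid enzymes, none was called higher and 1 lower, with a median of 0. It was Pla2g4a, the cytosolic phospholipase that frees arachidonic acid, with 0 and 0.0792 CPM in ILC2 and 17.9, 41.6 and 13.8 CPM in T cells. Its single ILC2 count gives a ratio of T cells over ILC2 of 611 (95% counting interval 109.7 to 24145) (adjusted p = 0.0116). Its microglial mean was 72.5 CPM, and the part of microglia in the T cell values was not tested. The Pla2g4a call was lost without ILC2 1 (adjusted p = 0.0783) or ILC2 2 (0.0595) and with limma-voom (0.0867). Outside these lists, Hilpda, which marks lipid droplets and inhibits fat breakdown, had 615 and 689 CPM in ILC2 and 113, 96.7 and 61.4 CPM in T cells. It was 7.22-fold higher in ILC2 (log2 fold change 2.85 ± 0.49, adjusted p = 0.0283). The Hilpda call was lost without any 1 of the 5 libraries (adjusted p = 0.0757 to 0.122), with no abundance trend (0.0562) and when tested against a minimum fold (0.102). Gm2a, also outside them, a lysosomal cofactor for ganglioside breakdown, had 979.9 and 1398 CPM in ILC2 and 287, 252 and 293 CPM in T cells. It was 4.29-fold higher in ILC2 (log2 fold change 2.10 ± 0.30, adjusted p = 0.0116). The Gm2a call was lost without T cells 2 (adjusted p = 0.0529) or ILC2 2 (0.0595) and when tested against a minimum fold (0.075). Naprt, an enzyme that makes NAD from nicotinic acid, had 25 and 20.2 CPM in ILC2 and no count in T cells, at least 81.7-fold higher (adjusted p = 0.011). The Naprt call held in every setting run. In microglia Naprt averaged 41.1 CPM, and the part of microglia in the ILC2 values was not tested.

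Some genes with high levels that were called belong to no list. Tspan13, a tetraspanin, had 2373 and 2677 CPM in ILC2 and 262, 322 and 322 CPM in T cells. Library values within a population were close and the populations far apart, 8.36-fold higher (log2 fold change 3.06 ± 0.26, adjusted p = 0.00142). The Tspan13 call held in every setting run. Fgl2, a secreted fibrinogen-like protein, had 1171 and 745 CPM in ILC2 and 100.2, 149 and 215 CPM in T cells. It was 6.19-fold higher in ILC2 (log2 fold change 2.63 ± 0.50, adjusted p = 0.0466). The Fgl2 call was lost without any 1 of the 5 libraries (adjusted p = 0.0716 to 0.19), with no abundance trend (0.0816) and when tested against a minimum fold (0.16). Serinc3 and Itm2b, membrane proteins at high levels, were higher in both ILC2 libraries. Serinc3 had 6911 and 6164 CPM in ILC2 and 1976, 2447 and 2395 CPM in T cells (log2 fold change 1.52 ± 0.27, adjusted p = 0.0323). The Serinc3 call was lost without any 1 of the 5 libraries (adjusted p = 0.0753 to 0.113), with no abundance trend (0.0989) and when tested against a minimum fold (0.419). Itm2b had 6455 and 8592 CPM in ILC2 and 2474, 2131 and 2976 CPM in T cells (log2 fold change 1.57 ± 0.26, adjusted p = 0.025). The Itm2b call was lost without T cells 1, T cells 2, T cells 3 or ILC2 2 (adjusted p = 0.0563 to 0.112), with no abundance trend (0.0847) and when tested against a minimum fold (0.343). On the other side, Hopx, a small homeodomain protein of effector T cells, had 17.4 and 30.6 CPM in ILC2 and 557, 584 and 395 CPM in T cells. It was 21.3-fold lower in ILC2 (log2 fold change -4.41 ± 0.78, adjusted p = 0.0323). The Hopx call was lost without any 1 of the 5 libraries (adjusted p = 0.0585 to 0.217), with no abundance trend (0.0595) and when tested against a minimum fold (0.0619).

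Some further genes were chosen after their values were seen, because their calls did not depend on any single library. Mras, a small GTPase, had 36.5 and 48.3 CPM in ILC2 and no count in T cells, at least 153-fold higher (adjusted p = 0.00915). The Mras call held in every setting run. Nuak2, a kinase related to AMPK, had 8.47 and 8.71 CPM in ILC2 and no count in T cells, at least 31-fold higher (adjusted p = 0.011). The Nuak2 call was lost in a fit without the microglia (adjusted p = 0.252) and with the newer quasi-likelihood method (0.0998). Irf5, a transcription factor downstream of MyD88, had 90.6 and 48.6 CPM in ILC2 and 9.54, 12.2 and 12.7 CPM in T cells (log2 fold change 2.60 ± 0.36, adjusted p = 0.0114). The Irf5 call was lost in a fit without the microglia (adjusted p = 0.0621) and with limma-voom (0.0819). Microglia averaged 349 CPM of Irf5 and 57.6 CPM of Nuak2, and the part of microglia in the ILC2 values was not tested. Samd3 had no count in ILC2 and 172, 61.1 and 143 CPM in T cells, at least 522-fold lower (adjusted p = 0.011). The Samd3 call held in every setting run.

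The lists held 4 more genes called lower. Slfn1, a Schlafen protein tied to T cell quiescence, had no count in ILC2 and 183, 167 and 164 CPM in T cells, at least 714-fold lower (adjusted p = 0.00142). The Slfn1 call held in every setting run. Cd86, a ligand of CD28, had no count in ILC2 and 9.43, 43.7 and 28.7 CPM in T cells, at least 114-fold lower (adjusted p = 0.00915). The Cd86 call was lost with limma-voom (adjusted p = 0.0716). Cd300a, an inhibitory lipid receptor, had no count in ILC2 and 11.4, 12.5 and 7.76 CPM in T cells, at least 44-fold lower (adjusted p = 0.00142). The Cd300a call was lost in a fit without the microglia (adjusted p = 0.119). Microglia averaged 479.7 CPM of Cd86 and 308 CPM of Cd300a, and the part of microglia in the T cell values was not tested. Cd4 had 0.484 and 0 CPM in ILC2 and 134, 283 and 209 CPM in T cells. It was 863-fold lower in ILC2 (log2 fold change -9.69 ± 1.16, adjusted p = 0.0116). The Cd4 call held in every setting run.

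Some called genes lay near each other in the genome. Tspan32, R74862 and Cd81 follow each other on chromosome 7, with no other tested gene between them, and were all called higher. Cd81, a tetraspanin of lymphocytes, had 912 and 862 CPM in ILC2 and 175, 251 and 217 CPM in T cells. It was 4.13-fold higher in ILC2 (log2 fold change 2.05 ± 0.27, adjusted p = 0.011). The Cd81 call was lost when tested against a minimum fold (adjusted p = 0.0599). In microglia Cd81 averaged 5583 CPM, and the part of microglia in the ILC2 values was not tested. Tspan32 had 486 and 654 CPM in ILC2 and 170.2, 112 and 163 CPM in T cells. It was 3.84-fold higher in ILC2 (log2 fold change 1.94 ± 0.33, adjusted p = 0.0269). The Tspan32 call was lost without any 1 of the 5 libraries (adjusted p = 0.0619 to 0.147), with no abundance trend (0.0626) and when tested against a minimum fold (0.18). R74862 overlaps Cd81 by 937 bases on the opposite strand and had 5.58% and 7.11% of the Cd81 counts in ILC2 and 4.58%, 5.61% and 6.09% in T cells. For R74862 itself the test gave log2 fold change 2.25 ± 0.35, adjusted p = 0.0213. The R74862 call was lost without T cells 1, T cells 3 or ILC2 2 (adjusted p = 0.0563 to 0.0787), in a fit without the microglia (0.131), with limma-voom (0.118) and when tested against a minimum fold (0.102). Strands are from GENCODE M21. Counting by strand is not stated, so reads of such a pair cannot be told apart. Gm16712 overlaps Ebi3 by 2252 bases on the opposite strand of chromosome 17, with 32.3% and 30.6% of the Ebi3 counts in ILC2 and 25.8%, 73.8% and 33.2% in T cells, and both were called higher (log2 fold change 3.59 ± 0.57, adjusted p = 0.0224 for Gm16712). The Gm16712 call was lost without any 1 of the 5 libraries (adjusted p = 0.0507 to 0.126).

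Mmp2, a matrix protease, lies 1891 bases from Lpcat2 on chromosome 8. Mmp2 had 23.5 and 11.6 CPM in ILC2 and 0, 0.207 and 0 CPM in T cells, where 3 counts in T cells give a ratio of 198 (95% counting interval 67.7 to 959) (adjusted p = 0.0246). The Mmp2 call was lost without T cells 1, T cells 3, ILC2 1 or ILC2 2 (adjusted p = 0.0542 to 0.0809) and in a fit without the microglia (0.125). Its counts were 7.41% and 5.4% of those of Lpcat2 in ILC2 and 0%, 0.445% and 0% in T cells. The microglial mean of Mmp2 was 41.2 CPM, and the part of microglia in the ILC2 values was not tested. Pairs of genes called lower within 200000 bases of each other were Ms4a6b and Ms4a6d on chromosome 19 with no tested gene between them, Ccl5 and Ccl4 on chromosome 11 with 2 tested genes between, and on chromosome 6 Klre1 and Klrc1 with 3 between and Ptpn6 and Cd4 with 10. Ms4a6d had 7.02 and 14.3 CPM in ILC2 and 42.7, 43.5 and 59.7 CPM in T cells (log2 fold change -2.19 ± 0.41, adjusted p = 0.0424). Its microglial mean was 313 CPM, and the part of microglia in the T cell values was not tested. The Ms4a6d call was lost without T cells 1, T cells 2, T cells 3 or ILC2 1 (adjusted p = 0.0732 to 0.16), with upper-quartile scaling (0.0565), in a fit without the microglia (0.194), with no abundance trend (0.0816), with limma-voom (0.195) and when tested against a minimum fold (0.178).

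Some basophil, mast cell and oligodendrocyte genes were higher in ILC2 libraries. Prss34 and Mcpt8, basophil proteases, were the 2 called genes of 14 tested basophil and mast cell genes, of which 6 were above all T cell libraries and the median log2 fold change was 1.63. The share above was 13.4% over all genes tested. Prss34 had 167 and 608 CPM in ILC2 and no count in T cells, at least 1400.3-fold higher (adjusted p = 0.0093). The Prss34 call held in every setting run. Mcpt8 had 84.8 and 346 CPM in ILC2 and 0, 0 and 1.09 CPM in T cells (log2 fold change 9.23 ± 1.47, adjusted p = 0.0224), a call lost without T cells 1 (adjusted p = 0.0665) or ILC2 2 (0.161), with a log2 fold change of 14.25 without T cells 3. Of 11 tested oligodendrocyte genes, 7 were above all T cell libraries, none was called and the median log2 fold change was 2.36. Whether these genes come from other cells in the sorted fraction was not tested.

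No gene of the ribosomal protein, respiratory chain and cell cycle lists was called. The 75 tested cytosolic ribosomal protein genes had a median log2 fold change of 0.22 and the 72 tested respiratory chain genes a median of 0.19. These medians average ILC2 libraries that differ. The summed CPM of respiratory chain genes was 18070 and 32540 in ILC2, on either side of 23550, 23430 and 20340 in T cells, and the ribosomal sums of the ILC2 libraries differed likewise. Of 43 tested cell cycle genes, 10 were above and 8 below all T cell libraries, against 13.4% above and 11.8% below over all genes tested, and the median was 0.08. The common biological coefficient of variation was 0.967, estimated over the ILC2, T cell and microglia libraries together. At this spread and number of libraries, a gene without a call is not shown to be equal between ILC2 and T cells.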

How the data were processed

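RNA of sorted brain ILC2, T cells and microglia was sequenced as single-end 75 bp reads. The submitters' processing notes name the mm10 build and, without their roles, STAR 2.5.3a, DESeq2 1.1, Cufflinks 2.0, bcl2fastq 2.20.0.422 and FastQC 1.0.0. The counting program and its use of strand are not given in the sources used here. The authors deposited 1 table of whole-number counts per gene; 1 of its 9 library columns matched no sample. The table's title calls the values normalised. They were used as raw counts because totals differ, unassigned reads are listed, and the frequencies of low values followed a smooth curve (chi-square per degree of freedom 0.741 to 1.47, against 7.8 and 12.1 once ILC2 2 was scaled by 0.8 or 1.25 and rounded). Every CPM, bound, interval and edgeR p rests on that reading. Unassigned reads (no feature) made up 53.8% to 61.0% of reads and were left out of library sizes.

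From these counts, edgeR 4.0.16 (R 4.3.3; TMM factors, trended dispersion, two-sided quasi-likelihood F test with Benjamini-Hochberg adjustment) was run as 1 fit of 8 libraries. CPM divides counts by gene totals times the TMM factor, without gene length, so levels of different genes are not compared. Values after ± are standard errors for log2 fold changes. Bounds use a floor of 3 counts per library, and counting intervals are exact at 95% and cover counting error only. Alternatives included DESeq2 1.42.0 and limma 3.58.1 (voom). The fit was tested on simulated data with 12405 genes, where it called 58% of genes changed 8-fold and 97% of those changed 64-fold. The changed genes were drawn only from genes with expected counts well above the minimum mean count. Each gene was simulated at the trended dispersion, without scatter of its own. These shares therefore may not hold for genes with low counts or wide spread.

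The members, the 56 gene lists (1225 genes tested) and the rule for named genes were chosen with earlier results of these data known. The rule took the given markers, the 15 called genes of each direction with the highest level, and in each list the called members (at most 8) and the 4 with the highest level; some of these genes are not reported here. Areg, Bst2, Calcrl, Csf2, Ebi3, Gm16712, Ifit3b, Ifng, Il13, Il18rap, Il1r2, Il1rap, Irf5, Klrc2, Lat, Lef1, Ly6c1, Mmp2, Mras, Nuak2, Pparg, Prf1, Ptgir, R74862, Samd3, Tcf7, Tnf, Tspan32, Vegfc, Vipr2 and Zap70 fall outside it and were chosen after their values were seen.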

Additional observations from a re-analysis of the deposited data

How the results depend on the processing

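The 56 genes called higher and 64 called lower in ILC2 became 117 and 118 with no low-count filter, 165 and 156 with the newer quasi-likelihood method, 239 and 290 with DESeq2, 169 and 123 with limma-voom, 35 and 43 with no abundance trend, and 29 and 41 when tested against a minimum fold. Leaving out 1 library gave 18 to 47 genes called higher and 35 to 44 called lower, with the fewest higher without ILC2 2 and the fewest lower without T cells 2. Without microglia in the fit the counts were 70 and 109. With the other scalings, a mean count of at least 50 or no minimum fold they were 56 to 62 and 59 to 66. The cause of these differences was not tested. DESeq2 called all 120 genes, limma-voom 48 of the higher and 44 of the lower. Scaling moved the median of all genes by under 0.1 on the log2 scale.

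Of 245 genes that the rule names, 71 were called, and none of these changed direction in 1136 values over the settings, while 205 missed the threshold. Among the 2776 values of the genes not called, 120 passed it and 102 changed direction. Genes of the text that changed direction were all uncalled and overlapped between the populations. Over the fits that left out 1 library, the log2 fold change ran from -0.65 to 0.13 for Bst2, from -1.09 to 1.36 for Calcrl, from -0.41 to 2.45 for Il1rap, from -0.83 to 0.40 for Tnf and from -1.67 to 0.084 for Zap70. Of 880 list medians, 49 moved by over 1.5-fold. A fit that leaves out an ILC2 library has 1 ILC2 library, which is assumed to vary like the others. No paired analysis was possible because the columns carry no replicate numbers.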
